A study of Brassica napus with 6 samples.

Results

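The predicted miRNAs of young rapeseed (Brassica napus) siliques are small RNAs that the authors listed as novel_mir with a running number, beside the known miRNA families. A total of 67 of them had enough reads to be followed in every comparison, out of 370 that were listed for all 4 small RNA libraries. The 67 were selected on their read counts: a miRNA had to be listed in both deposited tables of predicted miRNAs, joined by name, and to reach a count of 10 in at least 2 of the 4 libraries. The whole series holds 439 miRNAs in these tables, of which 69 are known ones.

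Small RNA came from pistils and young siliques, the seed pods of rapeseed, taken from 0 to 7 days after pollination. The LS group is a line with long siliques and the SS group a line with short ones, and both are populations of backcross progeny from a cross of 8008 with 4942 grown in a field in Wuhan. The labels name no transgene and no treatment, and each line has 2 small RNA libraries numbered 1 and 2 and 1 degradome library. About 12 plants were sampled per stage, each library is labelled with the whole range of days, and the labels do not say in which shares the stages were mixed. The RNA came from repeated experiments, but which library belongs to which is not stated. In whole organs, fewer cells of a type and less RNA per cell cannot be told apart, and the tables hold no mRNA levels, so the tissue label was not checked against marker genes.

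Plant miRNAs are cut from hairpin transcripts by a DICER-LIKE enzyme and are mostly 21 nt long, and many begin with U, the 5′ base that the effector protein ARGONAUTE1 prefers. They pair along nearly their whole length with an mRNA, which is then cut inside the paired stretch, and a degradome library reads the 5′ ends of such cut mRNAs. A second class of small RNAs, 24 nt long and made by another DICER-LIKE enzyme, mostly acts on repeats and DNA methylation. A predicted miRNA is a candidate from a prediction program and may belong to either class. The count tables give neither a sequence nor a genome position for it.

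Sequences were known by name for 7 of the 67 miRNAs, from the alignments in the degradome tables, where each name had the same sequence in both lines. They are shown to give the length, 5′ base and seed of each candidate. The running number alone links a sequence or site to a count, and this link could not be checked. Of the 114 predicted names in the degradome, 63 had a number above 394, the highest among the counts. Lengths, 5′ bases and sites given beside counts below rest on that link. Letters are DNA letters, 5′ to 3′, with the seed (bases 2 to 8) in capitals.
novel_mir_4: tGGCACTGgtagtagcgagtct
novel_mir_8: tTGAAAGTcgtccatgataag
novel_mir_11: cAAGACGGatctcaggacaaccat
novel_mir_24: tGAATGTCtttctcttcatc
novel_mir_37: tGATCTTGtgttgtgatgata
novel_mir_43: gAAGATTGgaacattgggacc
novel_mir_77: tTGGTGAAgatggtttcggaaca

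No 2 of these 7 share a seed. novel_mir_8, novel_mir_37 and novel_mir_43 are 21 nt long, novel_mir_24 is 20 nt, novel_mir_4 is 22 nt, novel_mir_77 is 23 nt and novel_mir_11 is 24 nt. Of the 7, 5 begin with T in DNA letters, that is U in the RNA, against 46 of the 113 predicted miRNAs with a sequence in the degradome tables. The most frequent length among those 113 was 23 nt, with 79 of them, and 1 was 24 nt long, which was novel_mir_11. Slid along the 32 known miRNAs of the same tables, with an overlap of at least 16 bases, none of the 7 came closer than 6 mismatches. Among predicted miRNAs, novel_mir_77 differed from novel_mir_720 by 1 base, G18A counted from the 5′ end, and shared its seed. novel_mir_720 is not in the count tables, so how reads were divided between these near-identical names is unknown, and the level of novel_mir_77 is uncertain.

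The running numbers follow the first LS library. In the table of the first pair, the count in LS library 1 never rose from one number to the next, and each of its 394 predicted miRNAs had at least 1 read there. In the other libraries, counts of 0 were present among the 370, with 55 in LS library 2, 65 in SS library 1 and 44 in SS library 2. A miRNA made in SS alone could therefore not appear among the 67. Among the 303 miRNAs under the count rule, the median log2 ratio of SS to LS was -0.40 in pair 1 and 0.44 in pair 2 (pseudocount of 0.5 counts), and that of LS library 2 to LS library 1 was -0.81. Among the 67 the same medians were 0.30, 0.35 and 0.02. The part that this ordering plays in the ratios of pair 1 was not tested.

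By the authors' totals, library size ran from 6046506 to 6739286 reads, and levels are given as RPM, the count divided by that total times 1000000. Reads of the 67 miRNAs summed to 2930 and 3120 in LS and to 3305 and 3586 in SS, between 76.0% and 82.7% of all reads of predicted miRNAs listed in both pairs. This came to 457 and 463 RPM in LS and 547 and 560 RPM in SS. The 52 known miRNAs that met the same count of 10 in 2 libraries summed to 48227 and 48191 RPM in LS and 65069 and 64952 RPM in SS. Counts of the 67 in the libraries of one line differed by no more than counting noise in LS (chi-square 1.05 per miRNA, p = 0.378 from 10000 exact binomial draws) and in SS (0.902, p = 0.702 from such exact draws). Since the SS libraries did differ in the known miRNAs (1.61, p = 0.0046 from exact draws) and the LS libraries did not (p = 0.469 from exact draws), the LS libraries were counted as 1 sample in the levels. The edgeR test kept them as separate libraries, and the fit with their sum as 1 sample is given beside the count of calls. An LS level is therefore the pooled value with its 95% Poisson interval, and an SS level is the mean of 2 libraries with its SD. Such intervals hold counting error only, so interval and SD do not compare the spread of the lines. The choice rests on the known miRNAs, since among the 67 neither line exceeded counting noise. The p-values rest on how far the libraries of a line lie apart, which among the 67 was no more than counting noise. Nothing says whether that spread is biological or technical, so a small p-value may not cover variation between plants.

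Levels fell steeply from the first few miRNAs. A group of 4, novel_mir_1 to novel_mir_4, held between 47.4% and 48.7% of the reads of the 67 in each library. novel_mir_1 stood at 92.5 and 87.8 RPM in LS and at 94.9 and 91.7 RPM in SS, and the lines overlapped. Of the 52 known miRNAs tested, 17 had a higher mean than novel_mir_1. novel_mir_2 stood at 52.6 and 50.3 RPM in LS and at 59.9 and 63.4 RPM in SS, with both SS libraries above both LS libraries. novel_mir_4, a 22 nt RNA, stood at 35.4 and 33.7 RPM in LS and at 42.3 and 41.4 RPM in SS, again without overlap. Across all 67 the mean level over the 4 libraries ran from 0.919 to 91.7 RPM with a median of 3.09 RPM, against a median of 24.5 RPM for the known miRNAs tested. A mean of 10 RPM or more was reached by 8 of the 67, while 32 stayed under 3 RPM.

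**Figure D1:**
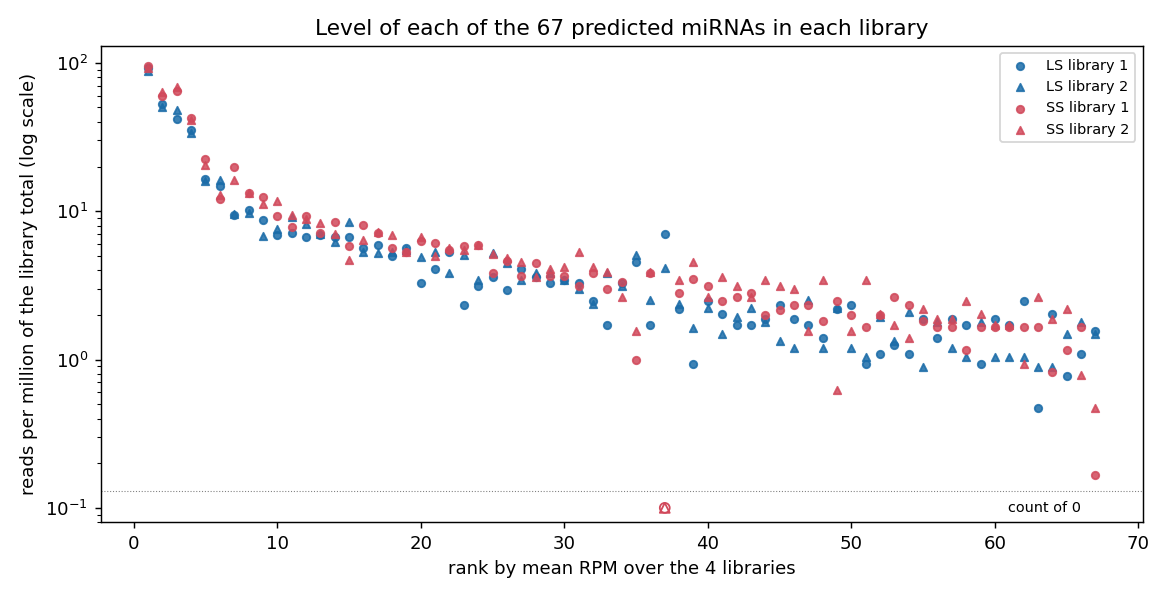
Level of each of the 67 predicted miRNAs in the 4 small RNA libraries, in RPM on a log axis, ordered by mean level. Circles and triangles mark libraries 1 and 2 of each line, and the open symbols at the bottom are the SS libraries of novel_mir_11, at a count of 0.

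The members at the edge of the count rule show how thin the counts become. With the second-highest of the 4 counts at 10, the lowest members by level were novel_mir_56, novel_mir_76 and novel_mir_104. Counts of novel_mir_76 were 7 and 12 in LS against 10 and 5 in SS, and those of novel_mir_104 were 5 and 10 against 7 and 14. Just outside, with a second-highest count of 9, were novel_mir_62 (8 and 3 counts in LS, 19 and 9 in SS), novel_mir_69 (7 and 8 in LS, 9 and 10 in SS) and novel_mir_73 (7 and 9 in LS, 6 and 12 in SS). Of the 67, 42 reached 10 counts in all 4 libraries and 5 reached 100 in all 4. The rule was met in LS alone by novel_mir_11 and novel_mir_56, and in SS alone by novel_mir_57, novel_mir_64, novel_mir_85 and novel_mir_212. For these 6 a line difference is partly built into their selection, and their tests are given as a description. They hold 4 of the calls reported for the 67.

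The largest line difference by fold change was the near absence of novel_mir_11 in SS. This RNA, 24 nt long by its degradome sequence, was counted 45 and 28 times in LS, which is 7.02 and 4.16 RPM. It was counted 0 times in either SS library. Its pooled LS level of 5.55 RPM (counting interval 4.35 to 6.98) lay at least 18.1-fold above SS, from the lower limit in LS and a floor for SS of 3 counts in its libraries together (0.241 RPM). novel_mir_11 met the count rule in LS alone, so its tests are a description. It passed edgeR's quasi-likelihood test (adjusted p = 2.36e-15) and each of the 18 other settings that tested it. novel_mir_11 was the only one of the 67 with at most 3 counts in one line and 20 or more in the other.

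novel_mir_22 was low in SS but present. Its counts were 29 and 34 in LS (4.53 and 5.05 RPM) against 6 and 10 in SS (0.992 and 1.56 RPM), so both LS libraries stood above both SS libraries. The pooled ratio of SS to LS was 0.268 (exact counting interval 0.145 to 0.47). Its log2 fold change of SS over LS was -1.88 ± 0.40 (SE, edgeR adjusted p = 1.8e-05), and it too passed in each of the 18 other settings. novel_mir_56 had 10 counts in each LS library and 1 and 3 in SS, a ratio of SS to LS of 0.211 (exact counting interval 0.0525 to 0.631). novel_mir_56 met the count rule in LS alone, so its tests are a description too. It passed at -2.18 ± 0.87 (edgeR adjusted p = 0.0301), and in 8 of 18 other settings. The call ended with DESeq2 (adjusted p = 0.162), with predicted miRNAs fitted alone (edgeR adjusted p = 0.15), with the replicate number as a block (edgeR adjusted p = 0.06) and without any 1 of the 4 libraries (0.065 to 0.18). The log2 fold change was -3.06 without SS library 2, -1.66 without SS library 1, -2.14 without LS library 1 and -2.21 without LS library 2. novel_mir_16, chosen after its values were seen, stood at 6.71 and 8.46 RPM in LS and 5.79 and 4.69 RPM in SS. It fell by 0.54 on the log2 scale (edgeR adjusted p = 0.0383), and passed in 10 of 18 other settings. The call ended with DESeq2 (adjusted p = 0.374), without LS library 2 (log2 fold change -0.36) and without SS library 2 (-0.39), among others.

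novel_mir_8, a 21 nt RNA that begins with U, was higher in SS. It was counted 60 and 65 times in LS (9.36 and 9.65 RPM) against 120 and 104 times in SS (19.8 and 16.2 RPM), without overlap. The SS level was 18.0 ± 2.55 RPM (SD, n = 2) and the pooled LS level 9.51 RPM (counting interval 7.91 to 11.3). From counts pooled in both lines, SS was 1.89-fold LS. The log2 fold change was 0.92 ± 0.13 (SE, edgeR adjusted p = 2.44e-08), with a call in 18 of 19 other settings. The exception was DESeq2 with its own size factors, at 0.55 (adjusted p = 0.223). novel_mir_3 stood at 42.0 and 47.9 RPM in LS and at 65.0 and 68.9 RPM in SS, with both SS libraries above both LS libraries. Its log2 fold change was 0.57 ± 0.06 (SE, edgeR adjusted p = 5.41e-13). The call ended with no factor (0.14), where the library size is the summed count of the fitted miRNAs. It also ended with DESeq2's own size factors (0.20).

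Counts of novel_mir_87 were 6 and 11 in LS and 21 and 29 in SS. The SS level was 4.00 ± 0.747 RPM (SD, n = 2) and the pooled LS level 1.29 RPM (counting interval 0.753 to 2.07). From counts pooled in both lines, SS was 3.11-fold LS. novel_mir_87 passed at 1.62 ± 0.43 (SE, edgeR adjusted p = 0.000742) and in 17 of 18 other settings, the exception being DESeq2 with its own size factors. novel_mir_212 was counted 3 and 6 times in LS against 10 and 17 times in SS, and passed at 1.64 ± 0.64 (SE, edgeR adjusted p = 0.0263). That call ended without LS library 1 (log2 fold change 1.27) and without SS library 2 (1.25), with predicted miRNAs fitted alone, with TMM factors (edgeR adjusted p = 0.143) and with DESeq2 (adjusted p = 0.168). novel_mir_85, chosen after its values were seen, was counted 6 and 7 times in LS against 10 and 22 times in SS. Its log2 fold change of 1.36 (edgeR adjusted p = 0.0301) was 0.73 without SS library 2 (edgeR adjusted p = 0.588). The call also ended without either LS library, with TMM factors and with DESeq2. Both novel_mir_212 and novel_mir_85 met the count rule in SS alone, so their tests are a description.

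**Figure D2:**
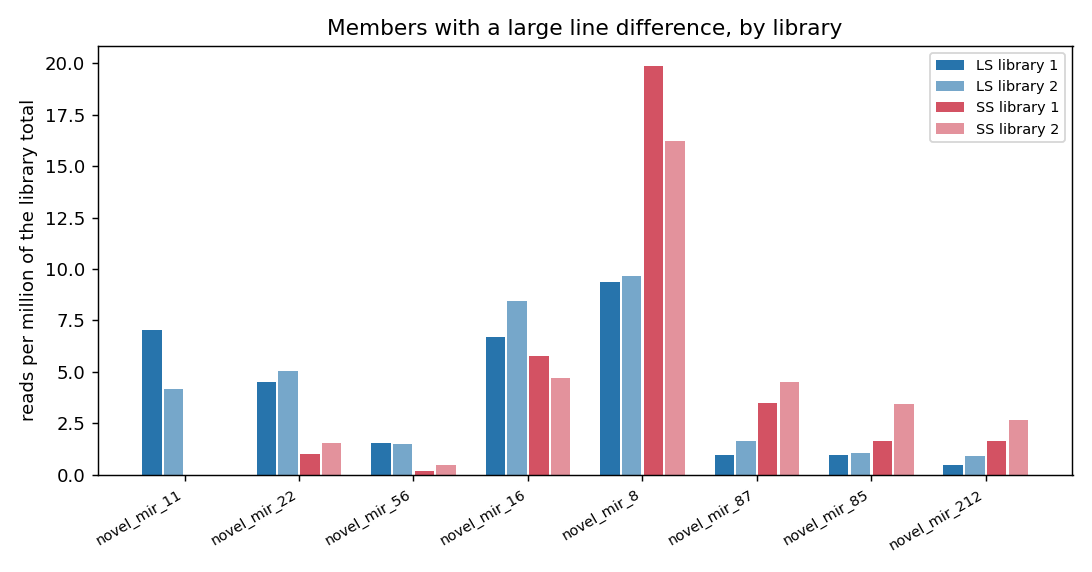
Level in each library, in RPM, of 8 predicted miRNAs that passed the test and whose changes were among the larger ones or went down in SS. Bars are single libraries, dark for library 1 and light for library 2, and novel_mir_11 has no bar in SS because its count was 0 in both libraries.

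Most of the other calls were small rises. By edgeR's test with the authors' library totals, 17 of the 67 passed an adjusted p of 0.05, 13 higher and 4 lower in SS. Without the 6 that met the count rule in one line alone, 13 of 61 passed, 11 higher and 2 lower. Over all 119 known and predicted miRNAs tested together, 44.5% passed, 38.7% higher and 5.88% lower. The median log2 fold change was 0.29 over the 67 and 0.41 over the 52 known miRNAs. With TMM factors, which set the libraries level to each other over most miRNAs, the median of all 119 moved from 0.37 to 0.05. On that scale 9 of the 67 passed, 3 higher and 6 lower, against 27.7% of all tested, 15.1% higher and 12.6% lower. With the LS libraries counted as 1 sample and the authors' totals, the 17 calls were kept and novel_mir_55 was added (edgeR adjusted p = 0.0385).

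The calls that held with both scalings were novel_mir_3, novel_mir_8 and novel_mir_87, higher in SS, and novel_mir_11, novel_mir_16, novel_mir_22 and novel_mir_56, lower in SS. Of these, novel_mir_11 and novel_mir_56 met the count rule in LS alone. The other 10 calls, higher by the authors' totals, ended with TMM factors. novel_mir_2 was at 0.26 ± 0.06 (SE, edgeR adjusted p = 0.00189) by the totals and at -0.06 with TMM, and novel_mir_4 at 0.28 ± 0.07 and at -0.05. novel_mir_5, at 16.4 and 15.9 RPM in LS and 22.3 and 20.6 RPM in SS, was at 0.41 by the totals and at 0.09 with TMM. novel_mir_7 had the same pair of values, 0.41 and 0.09, with 10.1 and 9.79 RPM in LS and 13.2 and 13.3 RPM in SS. novel_mir_9 was at 0.61 and 0.28, novel_mir_12 at 0.54 and 0.22, novel_mir_31 at 0.66 and 0.34, and novel_mir_32 at 0.86 and 0.53. By the totals, leaving out 1 library also ended most of these calls. novel_mir_31 was at 0.41 without LS library 1 (edgeR adjusted p = 0.286) and at 0.61 without SS library 2 (edgeR adjusted p = 0.115), where the call ended, and at 0.98 without LS library 2 (edgeR adjusted p = 0.0104). The call of novel_mir_12 ended without LS library 1 (0.47, edgeR adjusted p = 0.0959) and without SS library 2 (0.36, edgeR adjusted p = 0.288), and that of novel_mir_9 without LS library 2 (0.43, edgeR adjusted p = 0.115). The calls also ended without SS library 2 for novel_mir_2 (0.22), without LS library 2 (0.24) or SS library 1 (0.26) for novel_mir_4, without SS library 1 for novel_mir_5 (0.35), and without any 1 library for novel_mir_7 (0.39 to 0.44). That of novel_mir_32 was kept in each case (0.80 to 0.93). The libraries of novel_mir_32 stood at 3.12 and 3.41 RPM in LS and at 5.95 and 5.94 RPM in SS. DESeq2 with the authors' totals called 5 of the 17, which were novel_mir_3, novel_mir_8, novel_mir_11, novel_mir_22 and novel_mir_87.

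Conversely, novel_mir_1 and novel_mir_6 passed with TMM factors but not by the totals. novel_mir_1, the most abundant, was at 0.05 ± 0.05 (SE, edgeR adjusted p = 0.535) by the totals and at -0.28 with TMM (edgeR adjusted p = 1.96e-05). novel_mir_6, at 14.8 and 16.3 RPM in LS and 12.1 and 12.8 RPM in SS, was at -0.32 ± 0.12 (SE, edgeR adjusted p = 0.0719) by the totals and at -0.65 with TMM (edgeR adjusted p = 0.000106). Both SS libraries of novel_mir_6 were below both LS libraries.

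**Figure D3:**
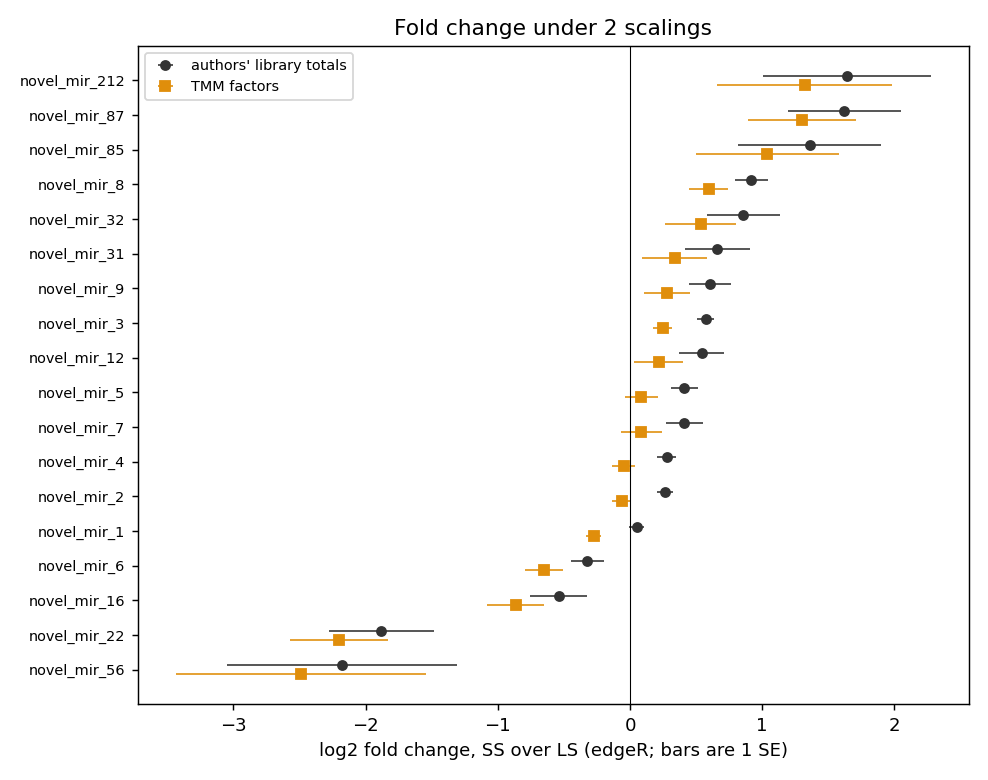
Log2 fold change of SS over LS by edgeR for 18 predicted miRNAs, with the authors' library totals (circles) and with TMM factors (squares), and bars of 1 SE. TMM moves each value down by about the same amount. With it novel_mir_1, novel_mir_2 and novel_mir_4 cross 0, while novel_mir_22, novel_mir_56, novel_mir_8 and novel_mir_87 stay on their side. novel_mir_11 is left out because its SS counts were 0.

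The remaining 50 miRNAs did not pass, with log2 fold changes from -0.53 to 1.02 by the authors' totals, 42 above 0 and 8 below. In RPM, both SS libraries stood above both LS libraries in 35 of the 67 and below in 6, while 26 overlapped. Over all 119 tested, 64.7% stood above and 8.4% below without overlap. For novel_mir_24, counted 26 and 23 times in LS against 22 and 29 times in SS, the pooled SS to LS ratio was 1.10 (exact counting interval 0.728 to 1.66), so a difference within these limits was not detectable at this depth.

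The pairs were also compared one at a time, as the authors did. In pair 1, SS to LS ratios above 0 ran from 0.106 to 3.71, and in pair 2 from 0.281 to 3.31. The ratio was above 1 in both pairs for 42 of the 67, below 1 in both for 7, and on opposite sides for 18. With a pseudocount of 0.5 counts, SS was higher in pair 1 for 50 of the 67 and for 45 of the 52 known miRNAs tested. In pair 2 it was higher for 52 of the 67 and again for 45 of the 52. The exact 95% counting interval of the ratio lay above 1 in both pairs for 4, novel_mir_3, novel_mir_8, novel_mir_32 and novel_mir_87. It lay below 1 in both for novel_mir_11, which met the count rule in LS alone, and novel_mir_22. Such intervals were counted for the 67 alone. For novel_mir_8 the ratio was 2.12 (1.54 to 2.94) in pair 1 and 1.68 (1.22 to 2.33) in pair 2. For novel_mir_87 it was 3.71 (1.45 to 11.2) and 2.77 (1.35 to 6.16), and for novel_mir_22 it was 0.219 (0.0744 to 0.538) and 0.31 (0.136 to 0.641).

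For some miRNAs the ratios of the pairs were unlike. novel_mir_37, a 21 nt RNA that begins with U, had a ratio of 2.47 (exact counting interval 1.32 to 4.87) in pair 1 and 1.08 (0.656 to 1.79) in pair 2. The counts were 15 and 34 in LS and 35 in each SS library, so LS library 1 alone stood low. Over the 4 libraries its log2 fold change was 0.59 (edgeR adjusted p = 0.0634), and the value turned on which LS library was kept. It was 0.16 without LS library 1 (edgeR adjusted p = 0.709) and 1.26 without LS library 2 (edgeR adjusted p = 0.00363). novel_mir_43 was at 0.408 (0.114 to 1.22) in pair 1 and at 2.11 (0.731 to 6.84) in pair 2, from counts of 13 and 6 in LS against 5 and 12 in SS. Its direction was thus opposite in the pairs, each time within counting error.

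In the authors' deposited tables, 7 of the 67 were marked as changed in pair 1 (5 higher in SS) and 11 in pair 2 (8 higher in SS), against 5.62% and 7.74% of all listed miRNAs. Marked in both pairs were novel_mir_11, novel_mir_22 and novel_mir_212. In the authors' deposited table of pair 1, marks and p-values did not always go together. novel_mir_7 and novel_mir_77 carried a mark there at deposited p-values of 0.111 and 0.211 in the authors' deposited table, while novel_mir_87 carried none at a deposited p of 0.00227.

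**Figure D4:**
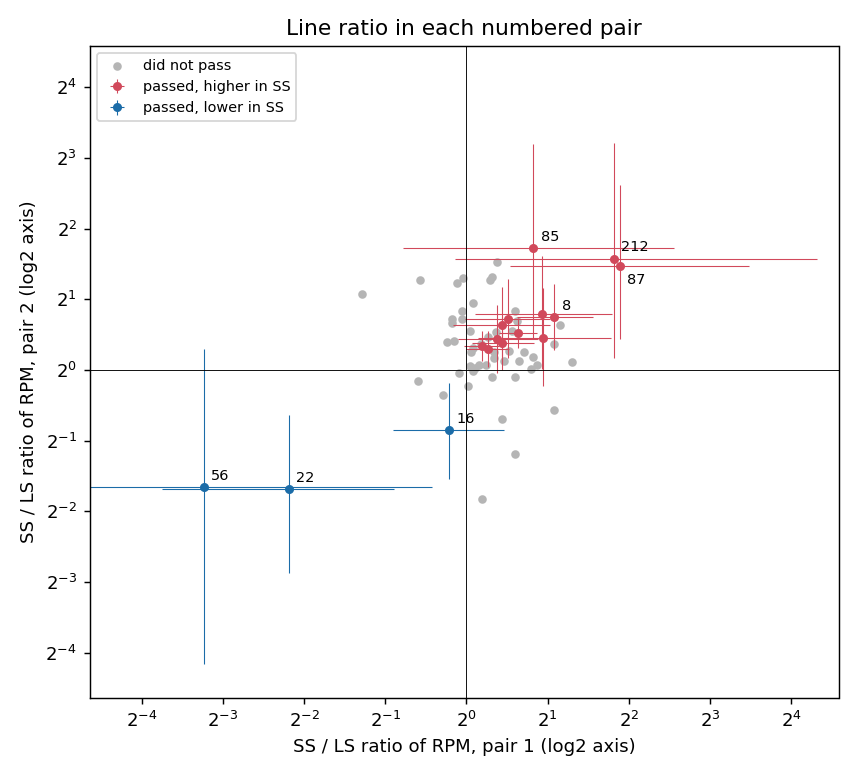
Ratio of SS to LS in RPM in pair 1 (x axis) against pair 2 (y axis), both on log2 axes, for 66 of the 67 predicted miRNAs. Bars are exact 95% counting intervals, shown for those that passed edgeR's test. novel_mir_22 and novel_mir_56 lie at the lower left, novel_mir_87 and novel_mir_212 at the upper right, and the pair 1 bar of novel_mir_56 runs off the plot.

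Cleavage sites in the degradome were listed for 7 of the 67, with 11 entries in the LS table and 23 in the SS table. Of all 370 predicted miRNAs listed in both pairs, 46 had an entry. There was 1 degradome library per line and no replicate. The last entry of the LS table is cut short, and targets run in ascending order of their identifiers. Up to that target the SS table held 9 of these entries. Targets are given by identifier, since none of the 28 target identifiers was in the gene table used here. The letter after Bna in an identifier is A or C, the names of the subgenomes that rapeseed took from turnip and cabbage ancestors. The categories of the tables run from 0 to 4, and in the usual scheme a lower category marks a cut site that stands out more from other fragments of the same mRNA.

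novel_mir_11, absent from the SS small RNA counts, had 4 entries in the LS degradome and 12 in that of SS, with 5 of the latter up to the last LS target. Whether the counts and the entries under this name belong to the same RNA could not be checked. The 4 targets in LS were also listed in SS. Its 12 targets carried 2 distinct sites, and 10 of them had the same one, shown here with the bases opposite the seed in capitals.
novel_mir_11 site in BnaA03g14550D: atggtgtcttgagatTCGTCATg
novel_mir_11 site in BnaA04g02300D: cttgttgccctgagatTCTCTTg
The first site had 20 Watson-Crick pairs and 2 G-U pairs over 24 aligned positions and an alignment score of 3. It stood at position 422 of BnaA03g14550D, with category 2 in both lines, a deposited p of 0.006 in LS and of 0.012 in SS. The second had 19 Watson-Crick pairs, a score of 4.5 and entries in SS alone. No entry of novel_mir_11 had a category below 2. Identical sites in 10 targets are not 10 independent observations, because a fragment from within the site can match all of them.

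novel_mir_24, a 20 nt RNA at 4.06 and 3.41 RPM in LS and 3.64 and 4.53 RPM in SS, had sites of category 0 throughout, as did novel_mir_43. It had 5 entries in LS and 4 in SS, on 8 targets, and up to the last LS target the numbers were 5 and 1. The target listed in both lines was BnaA03g56970D, at position 138, with a score of 1.5 and a deposited p of 0.002 in each. The same site was present in 3 targets of both subgenomes, with 18 Watson-Crick pairs and 1 G-U pair over 20 positions.
novel_mir_24 site in BnaA03g56970D: ggtgaagagaaaGACATTCt

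novel_mir_37 had the best-paired site of all 7, in BnaC08g11590D at position 538. It had 20 Watson-Crick pairs and 1 G-U pair over 21 positions, without a gap, a score of 0.5, category 1 and a deposited p of 0. It was listed in SS, and the LS table ends before this target.
novel_mir_37 site in BnaC08g11590D: tatcatcacgacaCAAGATCa
novel_mir_43 had 4 targets in SS with 2 different sites, each shared by a pair of targets, one named A and the other named C or unplaced on C, and all of category 0. Of its 4 entries in SS, 2 lay up to the last LS target and the others past it. The better site, with a score of 2.5 and 19 Watson-Crick pairs over 22 positions, was in BnaA09g03940D and BnaCnng24950D.
novel_mir_43 site in BnaA09g03940D: ggttccaaatgttcCAAGCTTc

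novel_mir_77 had 1 site, in BnaA05g01340D at position 427, listed in both lines with category 1 and a score of 4. novel_mir_4 had 1 entry, in LS (score 4.5, category 1), and novel_mir_8 had 1, in SS (score 3, category 4). The target of novel_mir_8 lies past the last LS target. Among the 17 miRNAs with a called line difference, novel_mir_4, novel_mir_8 and novel_mir_11 thus had a listed site, against 7 of all 67. The tables give no read numbers at the sites, so cutting could not be compared in strength between the lines.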

How the data were processed

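Small RNAs of 18 to 30 nt from 10 µg of total RNA were sequenced in 4 libraries, and degradome libraries used 200 µg, as the labels' protocols say. The deposited counts are raw read counts per miRNA, and the deposited RPM values are the count over the library total times 1000000, with 0.01 in place of a count of 0, per the file headers and values. The log2 fold change and p-value in the authors' tables compare 1 library with 1 library, per the file headers. The prediction program, aligner, genome build, test and the kind of read in the total were not given in the sources used here. In the degradome tables the score, category and p-value stand as the authors deposited them.

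Predicted miRNAs were joined between pairs, and with the degradome, by running number, without a sequence beside the counts to check it. The 119 known and predicted miRNAs that reached 10 counts in any 2 libraries were fitted together in edgeR 4.0.16 (quasi-likelihood, two-sided, R 4.3.3), with the authors' library totals as library size and Benjamini-Hochberg adjustment over all 119. The SE is the log2 fold change over the square root of F. Alternatives were TMM, RLE and no factors, other filters, DESeq2 1.42.0, limma-voom (limma 3.58.1), the replicate number as a block, the LS libraries as 1 sample and each library left out. With no factor, the library size was the summed count of the 119 fitted miRNAs in place of the authors' total. Where a fit had a lone library for a line, its spread was taken from the other line. Pair ratios carry exact binomial intervals given the totals.

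Members and rules were chosen with earlier results of these data known. Named were the 10 most abundant members, 12 that passed with the smallest p, members nearly absent in one line, those the authors marked in both pairs, 3 members and 3 others at the edge of the count rule (ties by level for members and by summed count for the others), and the 5 with the most degradome entries with ties.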

Additional observations from a re-analysis of the deposited data

How the results depend on the processing

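Counts of calls among the 67 depended on the scaling and the test. Against 17 calls in the fit of the report, TMM factors and RLE factors each gave 9 (3 higher, 6 lower in SS), no factor gave 8, predicted miRNAs fitted alone with TMM 8, the stricter minimum of 50 counts 9 of 12 tested, DESeq2 with the authors' totals 5 and with its own size factors 3. Fits with LS as 1 sample that were chosen after the data were seen gave 8 (predicted miRNAs alone) and 9 (TMM). Leaving out 1 library gave 9 to 14 calls, with 9 without SS library 2 and 11 without LS library 1. Predicted miRNAs alone gave 12, no filter 17 of 370 (14 of them among the 17), limma-voom 21, LS as 1 sample 18 and the replicate number as a block 16. Same-numbered libraries did not deviate together (correlation -0.13 over all 119 and -0.0807 over the 67), so the numbers were not taken as a pairing, and the block ended the call of novel_mir_56 alone. A block with crossed pairing, chosen after the data were seen, gave 11 calls. novel_mir_11, which met the count rule in LS alone, and novel_mir_22 passed in every setting that tested them. Under all 4 scalings (the authors' totals, TMM, RLE and no factor) 6 calls held, the 7 of the report without novel_mir_3. Of these 6, novel_mir_11 and novel_mir_56 met the count rule in LS alone, so their tests are a description.

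Among the miRNAs named by rule, these log2 fold changes took the opposite sign, some of them past the test by the authors' totals (novel_mir_2, novel_mir_4, novel_mir_5 and novel_mir_7). In the order TMM, RLE, no factor, predicted alone with TMM, and DESeq2 with its own size factors, log2 fold changes were -0.28, -0.32, -0.38, -0.28 and -0.32 for novel_mir_1, -0.0626, -0.11, -0.17, -0.0612 and -0.11 for novel_mir_2, -0.048, -0.0952, -0.15, -0.0466 and -0.0951 for novel_mir_4, and -0.19, -0.24, -0.29, -0.19 and -0.24 for novel_mir_24. With LS as 1 sample and TMM they were -0.22 for novel_mir_1, -0.00147 for novel_mir_2 and -0.13 for novel_mir_24. With no factor novel_mir_5 was at -0.0182, novel_mir_7 at -0.0181 and novel_mir_77 at -0.0287. Leaving out 1 library gave -0.0345 to 0.28 for novel_mir_24, -0.791 to 0.606 for novel_mir_43 and -0.872 to 0.193 for novel_mir_76. The cause was not tested. Counting all 67, 36 had the opposite sign in at least 1 setting.

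A minimum of 5 counts would give 120 members, 20 counts 38, and 10 counts in all 4 libraries 42. With at most 5 counts in one line, 2 members were nearly absent there, novel_mir_11 and novel_mir_56. Degradome entries in both tables were present for 3 of the 7. Depth limits most of the 67, since a count of 10 carries a wide counting interval.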
